A study of Mus musculus with 9 samples.

Results

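Bone marrow cells of 3 NZBWF1 mice were compared with those of 3 NZW mice. NZBWF1 is the first-generation cross of NZB and NZW, so each NZBWF1 mouse carries 1 NZW copy and 1 NZB copy of every autosomal gene. Female NZBWF1 mice spontaneously develop a disease that resembles systemic lupus erythematosus, with antibodies against nuclear antigens and immune-complex nephritis, and the comparison asks what the hybrid marrow holds that the marrow of its NZW parent does not. All mice were untreated females bought as young adults, delivered together and studied at 9 to 10 weeks of age. Marrow was flushed from the femurs, red cells were lysed, and each mouse gave 1 droplet-based library that counted the 3' ends of transcripts as unique molecular identifiers (UMIs). The 3 libraries whose titles carry the disease name are those of the NZBWF1 mice. Barcodes of the filtered matrix were kept if they held 1000 or more UMIs from 500 or more genes, of which no more than 10% were mitochondrial, and the number at the end of each barcode gave the mouse. This left 28204 of the 39051 kept cells of the whole study, 13802 from NZBWF1 and 14402 from NZW. The mouse was the replicate throughout, and p-values measure the spread between these mice, which shared a delivery.

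The libraries of the 2 strains were of like depth per cell. NZBWF1 1, 2 and 3 gave 2566, 5552 and 5684 cells, and NZW 1, 2 and 3 gave 4309, 5143 and 4950. The median cell held 2222 ± 62.0 UMIs (SD, n = 3) in NZBWF1 and 2271 ± 43.3 in NZW. The sum over a mouse's cells ran from 8106539 to 18663189 UMIs in NZBWF1 and from 13622042 to 16343916 in NZW, so NZBWF1 1 was the shallowest of the 6. UMIs of barcodes too poor to be cells, taken as free RNA, came to at most 0.783% of the UMIs of a median cell, and 83 of 28120 distinct barcodes were seen in more than 1 of the 6 libraries. Immunoglobulin and J chain genes took 0.477 to 0.713% of the UMIs in NZW and 1.85%, 2.16% and 5.02% in NZBWF1 1, 2 and 3, so NZBWF1 3 stood apart from the other two. Below, a level in CPM is the number of UMIs of a gene per 1000000 UMIs of the mouse's total after edgeR's TMM scaling, or of that of its cells of a class where a class is named. The summed level of a list of genes is given without TMM scaling. The factors ran from 0.977 to 1.07 in the 6 mice, and a log2 difference is that of NZBWF1 minus NZW with its standard error.

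Plasma cells are antibody-secreting B-lineage cells, and long-lived ones reside in the marrow. Plasmacytoid dendritic cells sense nucleic acids through endosomal receptors and secrete type I interferon, and they are also made in the marrow. Both are much studied in lupus. Ferritin is the iron store of the cell, a shell of heavy chains (Fth1) and light chains (Ftl1), and the mouse genome holds near-identical copies of the light-chain gene. The difference between NZBWF1 and NZW with the smallest p-value fell on such a pair, Ftl1 on chromosome 7 (mm10 chr7:45457944-45459884, minus strand) and Ftl1-ps1 on chromosome 13 (chr13:74399694-74407346, plus strand). Their last 105 coding bases, up to the stop codon, are shown because they let a reader see how little separates the copies where a 3' library reads them. They come from the GENCODE vM21 transcripts, at chr7:45458107-45458211 and chr13:74407051-74407155, with the 2 bases that differ in capitals.
Ftl1: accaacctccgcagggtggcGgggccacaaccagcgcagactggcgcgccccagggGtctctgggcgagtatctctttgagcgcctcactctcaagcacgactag
Ftl1-ps1: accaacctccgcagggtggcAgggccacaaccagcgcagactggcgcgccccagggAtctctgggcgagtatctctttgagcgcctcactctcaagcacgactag
Over the whole aligned transcripts, Ftl1-201 and Ftl1-ps1-202 were identical at 906 of 910 bases.

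Plasma-like cells were the cell class that differed in number. Classes were named from marker genes, with the genes that differed between strains left out of the clustering, and are called "like" because no deposited annotation was used here. Plasma-like cells were 0.148%, 0.271% and 0.239% of the cells in NZW 1, 2 and 3 and 0.608%, 1.01% and 1.80% in NZBWF1 1, 2 and 3. The groups did not overlap, and NZBWF1 3 held the most. In the NZB parent the share was 0.890%, 1.07% and 1.35%, within the range of the NZBWF1 mice. These shares rested on 6, 13 and 11 cells in NZW and on 15, 52 and 94 in NZBWF1. The difference was 2.38 ± 0.44 on the log2 scale (edgeR adjusted p = 0.00272 over 16 classes), a 5.20-fold higher share. Of the 16 classes, 6.25% were called and 25% had groups that did not overlap. The call has 2 limits. An exact permutation test of the shares cannot go below p = 0.1 with 3 mice against 3, and gave that value. When cells were assigned 1 by 1 by a marker score in place of by cluster, the plasma shares were 1.65%, 1.52% and 1.30% in NZW and 1.34%, 1.96% and 3.72% in NZBWF1, and the call was lost (log2 difference 0.67 ± 0.38, edgeR adjusted p = 0.374).

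Plasmacytoid dendritic-like cells were next in size of p. They made up 3.43%, 4.05% and 3.65% of the NZW cells and 4.74%, 7.25% and 7.76% of the NZBWF1 cells, without overlap. The log2 difference of 0.83 ± 0.29 did not pass the test over classes (edgeR adjusted p = 0.117). It passed with the replicate number as a block (0.83 ± 0.25, adjusted p = 0.0232) and once NZBWF1 1, the mouse with the fewest cells of the 6, was left out (1.02 ± 0.23, adjusted p = 0.0121). In the NZB parent the same share was 14.5%, 13.5% and 10.8%. The macrophage-like and NK-like shares also did not overlap. Macrophage-like cells were 1.85 to 2.25% in NZW and 2.55 to 3.49% in NZBWF1 (log2 difference 0.47 ± 0.31), and NK-like cells were 1.36 to 1.5% against 1.65 to 2.67% (0.47 ± 0.42). Neither passed the test. T-like cells were 1.24 to 1.60% in NZW but 5.92%, 1.28% and 2.49% in NZBWF1 1, 2 and 3, so the hybrid mice spread widely and overlapped the parent. Their difference of 1.16 ± 0.53 (edgeR adjusted p = 0.258) passed with the replicate number as a block (0.92 ± 0.32, adjusted p = 0.0440). Precursor and mature B-like cells did not follow the plasma-like cells. B precursor-like cells were 15.3 to 19.8% in NZW and 13.5 to 22.7% in NZBWF1, and mature B-like cells were 6.91 to 12.6% and 3.42 to 14.2%. Neutrophil-like cells, the largest class, were 29.5 to 35.1% and 26.6 to 34.1%.

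**Figure D1:**
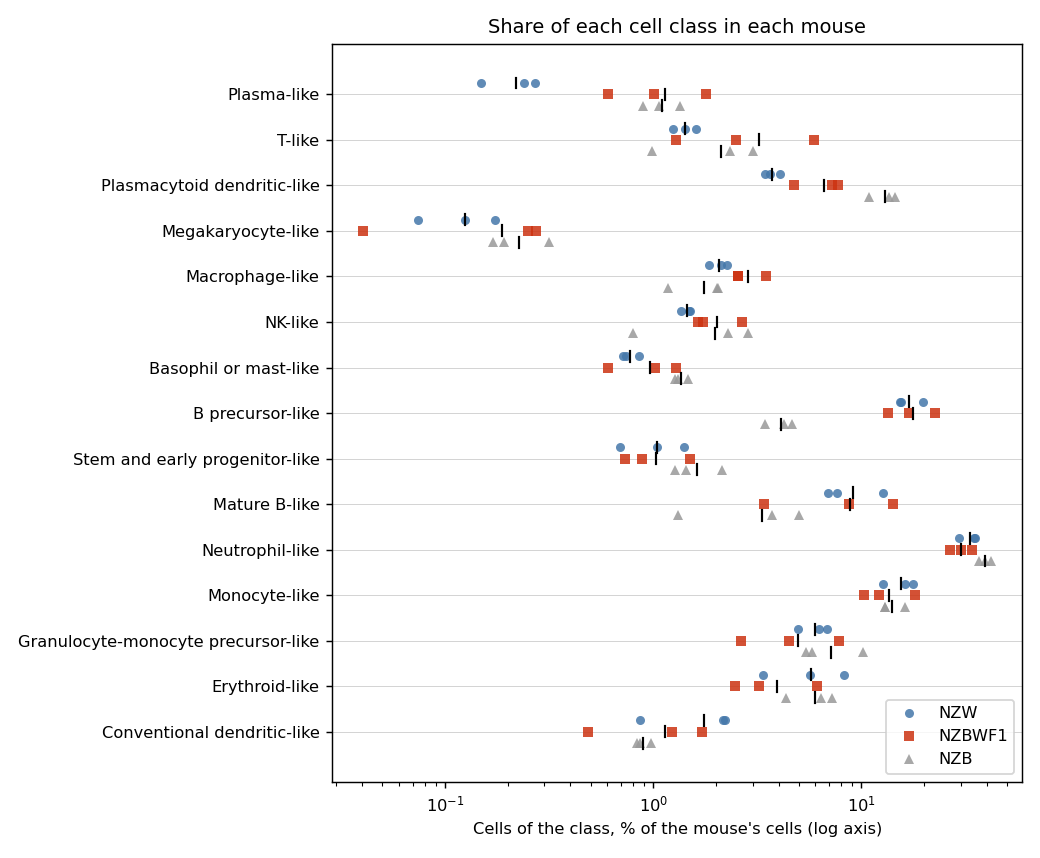
Share of each mouse's cells (percent, log axis) in 15 named classes, with a dot per mouse for NZW, NZBWF1 and NZB and a black tick at the strain mean. Plasma-like cells lie between 0.148 and 0.271% in NZW and between 0.608 and 1.80% in NZBWF1, and plasmacytoid dendritic-like cells between 3.43 and 4.05% and between 4.74 and 7.76%.

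Across the whole marrow, UMIs were summed per mouse and the strains compared for 12613 genes. NZBWF1 was higher for 188 genes (1.49%) and lower for 99 (0.785%) at an edgeR adjusted p under 0.05. Of the genes called higher, 118 differed by more than 2-fold, with a median log2 difference of 1.29. Of those called lower, 33 did, with a median of -0.83. The count leaned on single mice: without NZW 2, NZW 3 or NZBWF1 3 it fell to 100, 99 and 109 higher and to 35, 34 and 41 lower, and without NZW 1 it was 159 higher and 157 lower. A sum over the marrow moves both with the number of cells of a type and with the RNA in each, and the sums alone cannot tell these apart. UMIs were therefore also thinned within classes until every mouse had the same class makeup. With equal class shares, 160 of 10108 genes were called (1.58%), 76 higher and 84 lower, among them 56 of the 142 higher genes and 46 of the 86 lower genes that could still be tested. The thinning also left 15.2 to 20.7% of the UMIs of each of the 6 mice. When the same cells were thinned to the same totals with their makeup kept, 79 genes were higher and 43 lower, so the smaller number of calls with equal class shares is not by itself a sign of class makeup, and the log2 differences are given beside it. Of the higher genes tested in both fits, 138 in all, 56 were called with equal class shares and 61 with the makeup kept, with median log2 differences of 0.73 and 1.08. Of the 83 lower genes, 43 and 31 were called, with medians of -0.63 and -0.73.

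**Figure D2:**
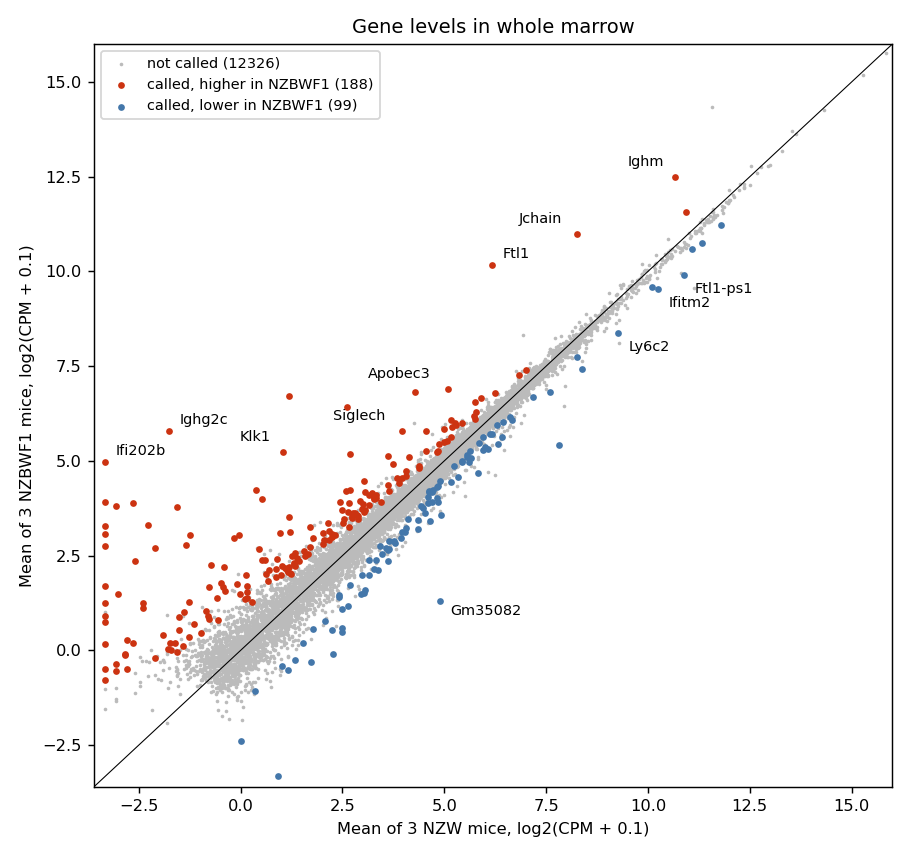
Mean level of each gene in NZW (x axis) and NZBWF1 (y axis) as log2(CPM + 0.1), with the 188 genes higher in NZBWF1 in red, the 99 lower in blue and the other 12326 in grey. Genes near 0 in NZW, such as Ifi202b and Ighg2c, sit far above the diagonal.

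Of the antibody genes, Ighm, Jchain and Ighg2c were higher in NZBWF1. Ighm, the constant region of IgM (chr12:113418558-113422730), stood at 1689.8, 1244 and 1900.5 CPM in NZW and 5056, 4267 and 7834 CPM in NZBWF1 (log2 difference 1.83 ± 0.32, edgeR adjusted p = 0.0265). Jchain, which joins IgM and IgA into polymers, stood at 264, 245 and 401 CPM against 1197, 1619 and 3323 CPM (2.75 ± 0.47, adjusted p = 0.0306). For both genes every NZBWF1 mouse was above every NZW mouse, and NZBWF1 3 was the highest. Both calls leaned on single mice: that of Ighm was lost without NZW 1, 2 or 3 or NZBWF1 1 (edgeR adjusted p = 0.075 to 0.112) and that of Jchain without NZW 1, 2 or 3, NZBWF1 2 or NZB 2 (0.057 to 0.147), with log2 differences of 1.67 to 1.97 and 2.62 to 3.01. Ighg2c, an IgG2 constant region, was at 0.226, 0.354 and 0 CPM in NZW and at 50.05, 66.8 and 48.3 CPM in NZBWF1, and NZB held 0, 0 and 0.0908 CPM. It was thus near 0 in both parents (8.09 ± 0.34, edgeR adjusted p = 8.54e-08), and the call held without each mouse in turn. IgG2 constant regions are close copies of each other and 12.8% of the 3' words of Ighg2c occur in Ighg2b, so their counts are uncertain, while Ighg2b itself was at 3.23 to 28.3 CPM in NZW and 13.5 to 37.9 CPM in NZBWF1. The other class-switched isotypes were scattered among the mice. Igha was at 185, 0.448 and 75.6 CPM in NZBWF1 1, 2 and 3 against 319, 164 and 259 CPM in NZW, and Ighg1 was at 0, 78.4 and 1.33 CPM against 1.28, 63.4 and 0 CPM. Igkc, the kappa constant region, stood at 2304 to 3788 CPM in NZW and at 10232, 14274 and 37868 CPM in NZBWF1 but did not pass the edgeR test (2.79 ± 0.57, adjusted p = 0.0647), while DESeq2 called it. Of the 12 genes of constant regions and J chain tested, 3 were higher and 0 lower, beside 1.49% and 0.785% of all genes, with a median log2 difference of 1.08 beside -0.00 over all genes.

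Of 32 plasma cell regulators and endoplasmic reticulum folding genes tested, 7 were higher and 0 lower, beside 1.49% and 0.785% of all genes, with a median log2 difference of 0.33. Derl3, which helps to clear misfolded proteins, was at 1.96, 2.83 and 1.77 CPM in NZW and 8.63, 8.40 and 17.1 CPM in NZBWF1 (2.39 ± 0.31, edgeR adjusted p = 0.00183). Pdia4, a disulfide isomerase, was at 34.8, 38.1 and 35.5 CPM against 52.7, 54.6 and 70.7 CPM (0.72 ± 0.11, adjusted p = 0.00301). Sdc1, the plasma cell surface marker syndecan-1, was at 8.14 to 10.0 CPM in NZW, 12.5 to 23.1 CPM in NZBWF1 and 8.12 to 11.8 CPM in NZB, so it was also above both parents. Txndc5, Creld2, Edem1 and Fkbp11 were the others, with log2 differences of 0.47 to 0.85. The calls of Derl3 and Pdia4 held without each mouse in turn, but that of Sdc1 was lost without NZW 1, 2 or 3, NZBWF1 1 or 3, or NZB 1 (edgeR adjusted p = 0.0611 to 0.17), and those of Txndc5, Creld2, Edem1 and Fkbp11 were each lost in 5 to 7 of the 9 fits that left a mouse out (0.0541 to 0.19). The transcription factors Xbp1 (0.11 ± 0.13) and Prdm1 (1.07 ± 0.38) were not called. With equal class shares the log2 difference of Ighm was 0.53 (adjusted p = 0.709), of Jchain 0.19 (0.89), of Derl3 0.48 (0.656) and of Ighg2c 6.79 (0.103). At the same totals with the makeup kept, Ighm (1.86, edgeR adjusted p = 0.1) and Jchain (2.73, adjusted p = 0.0964) were not called either, but their log2 differences were close to those of the full sums. With equal class shares 1 of the 32 regulators and folding genes was called, Calr (0.41, edgeR adjusted p = 0.00736), and the median of the constant-region list was -0.01. Genes of earlier B cells had no calls: 0 of 14 pre-B receptor and recombination genes, 0 of 16 B-lineage transcription factors and 0 of 22 mature B genes were called by edgeR or DESeq2. Their medians were 0.13, 0.13 and -0.03. An unadjusted p under 0.05 was seen for 2, 1 and 1 of them, beside 13.7% of all genes. Of the 8 plasma cell markers 4 were higher (Jchain, Sdc1, Derl3 and Txndc5), and their summed level was 557 to 718 CPM in NZW and 1708 to 3890 CPM in NZBWF1.

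The ferritin pair showed the smallest p-value of all. Ftl1 stood at 61.8, 71.3 and 81.7 CPM in NZW and at 1073, 1169 and 1222 CPM in NZBWF1 (log2 difference 4.01 ± 0.13, edgeR adjusted p = 5.61e-10), and at 3093, 2623 and 2562 CPM in NZB. Ftl1-ps1 went the other way, from 1969, 1802 and 1880.2 CPM in NZW to 875, 957 and 1064 CPM in NZBWF1 (-0.96 ± 0.10, adjusted p = 0.000135), with 11.8 to 15 CPM in NZB. The 2 copies thus changed places between the parents, and the hybrid lay between them for each. Of the 31-base words in the last 400 bases of their transcripts, 76.9% of those of Ftl1 also occurred in Ftl1-ps1. Summed over both copies, the level was 2031, 1874 and 1962 CPM in NZW and 1948, 2126 and 2286 CPM in NZBWF1, which overlapped (0.12 ± 0.10, adjusted p = 0.671). The heavy chain Fth1, at 2525 to 3022 CPM in NZW and 2607 to 2769 CPM in NZBWF1, was not called either (-0.09 ± 0.10). Reads assigned to Ftl1 or to Ftl1-ps1 alone are therefore uncertain.

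In the separate classes the copies differed in the same directions. Ftl1 was higher in all 14 classes fitted and Ftl1-ps1 lower in 13 of them. Ftl1 made up 44.7 to 56.5% of the mean sum of the pair in NZBWF1, depending on the class. The log2 ratio of the mean sums lay between -0.05 in T-like cells and 0.45 in plasmacytoid dendritic-like cells. The sums overlapped in 10 classes, and in 4 every NZBWF1 mouse was above every NZW mouse: plasmacytoid dendritic-like (1900.2 to 2062 against 1437 to 1458 CPM), monocyte-like (4505 to 5398 against 3935 to 4272 CPM), basophil or mast-like and plasma-like cells. Tpm3, a tropomyosin that binds actin filaments, and its processed copy Tpm3-rs7 (chr14:113314608-113316754) formed a second such pair. Tpm3-rs7 was at 6.02, 6.49 and 5.68 CPM in NZW and 98.0, 74.7 and 83.7 CPM in NZBWF1 (3.81 ± 0.12, edgeR adjusted p = 5.61e-10), while Tpm3 was at 329, 286 and 304 CPM against 187, 209 and 239 CPM (-0.53 ± 0.11, adjusted p = 0.0222). Their sum was 335, 292 and 309.9 CPM in NZW and 285, 284 and 322 CPM in NZBWF1, again with overlap (adjusted p = 0.777). By class that sum overlapped in 11 of 13 classes and was lower in NZBWF1 without overlap in mature B-like and plasmacytoid dendritic-like cells.

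Ly6c1 and Ly6c2, which encode the monocyte antigen Ly6C and lie side by side on chromosome 15, behaved otherwise. Ly6c1 rose from 0.226, 0.118 and 0.366 CPM in NZW to 11.3, 15.96 and 13.7 CPM in NZBWF1 (5.82 ± 0.40, edgeR adjusted p = 1.17e-05). Ly6c2 fell from 650.4, 591 and 610.3 CPM to 275, 388 and 336 CPM (-0.89 ± 0.12, adjusted p = 0.000919). Because Ly6c2 was by far the larger, the sum fell too, from 651, 591 and 611 CPM to 286, 404 and 349.6 CPM (-0.83, adjusted p = 0.00463), and NZB held 97.3 to 135 CPM. The sum of the pair was lower in NZBWF1 in each of the 3 classes where it could be formed, with log2 ratios of the means from -1.05 to -0.73. Summing was extended to the 23 pairs or groups of called genes that shared at least 25% of their 3' words with a copy, an alternative chosen after seeing the data. Of the 23 sums, 11 were called. Besides the ferritin and tropomyosin pairs, the 12 that were not included Psme2 with Psme2b, where the called gene Psme2b was at 1.05 to 1.65 CPM against 12.0 to 21.5 CPM but the sum at 151 to 158 CPM against 178 to 191 CPM. Pcna, Trbc1, Hbb-bt and Hist1h4h also lost their calls when summed with a copy. BC023719, a transcript annotated as antisense on chromosome 17 (chr17:36111426-36117121), was at 0 UMIs in the 3 NZW mice and at 13.8, 14.5 and 16.8 CPM in NZBWF1, at least 239.9-fold higher when set against a floor of 3 UMIs over the strain's libraries. With A930015D03Rik, which shares 35.4% of its 3' words, its sum was 3.91 to 7.30 CPM against 17.1 to 20.9 CPM (1.85 ± 0.18, adjusted p = 6.31e-05).

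**Figure D3:**
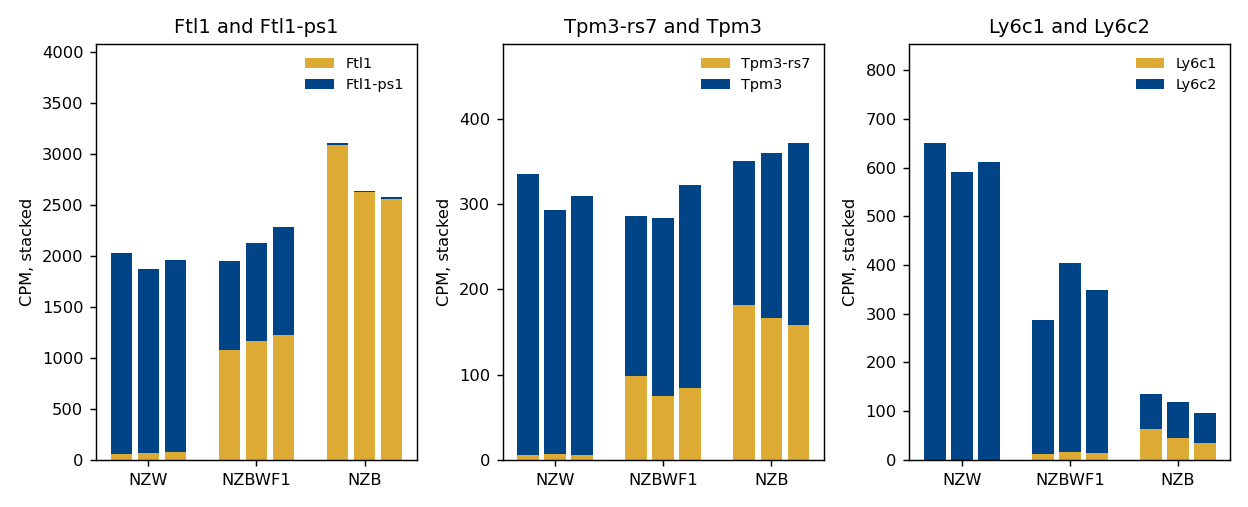
Level in CPM of each mouse as stacked bars for 3 pairs of copies, Ftl1 with Ftl1-ps1, Tpm3 with Tpm3-rs7 and Ly6c1 with Ly6c2, in NZW, NZBWF1 and NZB. The bars of NZW and NZBWF1 are of like height for the first 2 pairs while their makeup differs, and for the Ly6c pair the bars fall from 591 to 651 CPM in NZW to 286 to 404 CPM in NZBWF1.

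Genes of nucleic acid sensing and antiviral defence differed member by member. Ifi202b, an interferon-inducible gene of the Ifi200 cluster that has long been studied in NZB-derived lupus (chr1:173962568-173982744), had 0 UMIs in all 3 NZW mice and stood at 23.01, 39.0 and 31.6 CPM in NZBWF1, at least 515-fold higher. Its neighbour Mndal was lower, at 93.2, 75.2 and 89.7 CPM against 44.5, 46.0 and 56.4 CPM (-0.81 ± 0.11, edgeR adjusted p = 0.00115), and Ifi211 was higher (0.89 ± 0.16). The whole cluster had 2 genes higher and 1 lower of 12 tested, beside 1.49% and 0.785% of all genes. Apobec3, a cytidine deaminase that restricts retroviruses (chr15:79891659-79915906), was at 28.9, 37.0 and 35.6 CPM in NZW and 132, 104 and 119.8 CPM in NZBWF1 (1.80 ± 0.11, adjusted p = 5.12e-07). Ifitm2, a membrane protein that hinders virus entry, was at 1304, 1152 and 1163 CPM against 651, 769 and 811 CPM (-0.70 ± 0.10, adjusted p = 0.00242). The groups did not overlap for any of these genes. The lists of type I interferon-stimulated genes and of interferon-inducible GTPases gave no edgeR call. Of 48 interferon-stimulated genes tested, 0 were called by edgeR and 1 by DESeq2 (Bst2), with a median log2 difference of 0.07. At an unadjusted p under 0.05, 3 were higher and 5 lower (16.7% of the list, beside 13.7% of all genes), and 5 lay above and 4 below NZW without overlap, beside 9.74% and 9.26% of all genes. Isg15 was at 15.5 to 18.9 CPM against 16.7 to 23.1 CPM (0.17 ± 0.15) and Irf7 at 17.2 to 21.5 CPM against 20.2 to 30.7 CPM (0.30 ± 0.16). The interferon-inducible GTPases gave 0 of 12 by edgeR and 1 by DESeq2 (Gbp7), with a median of 0.43 (-0.26 with equal class shares), and 5 were higher and 1 lower at an unadjusted p under 0.05. Gbp7 was at 11.3 to 15.1 CPM in NZW and 17.3 to 19.8 CPM in NZBWF1 (0.55 ± 0.14, edgeR adjusted p = 0.0626). Toll-like receptors and their adaptors gave 0 of 22 by edgeR and by DESeq2, with 4 higher and 1 lower at an unadjusted p under 0.05. Tlr7 was not called (0.53 ± 0.17, edgeR adjusted p = 0.145).

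Antigen presentation genes were split as well. Of 22 MHC class I and peptide-loading genes, 3 were higher and 1 lower, beside 1.49% and 0.785% of all genes. The non-classical genes H2-Q7, at 14.6, 10.6 and 11.3 CPM in NZW and 40.8, 25.4 and 38.7 CPM in NZBWF1 (1.52 ± 0.18, edgeR adjusted p = 0.00071), and H2-Q6, at 6.67 to 8.91 CPM against 15.3 to 25.6 CPM (1.45 ± 0.22), were higher, and their sum was called too. H2-T22 was lower (-0.46 ± 0.10). The strains also differ in MHC haplotype, and how alleles align to a single reference was not tested. Among 12 MHC class II and antigen-loading genes edgeR called 2 proteases (and DESeq2 also H2-DMb1), Ctss higher (0.40 ± 0.09) and Ctse lower, at 170.4, 209 and 199 CPM against 112, 131 and 95.0 CPM (-0.78 ± 0.16, adjusted p = 0.027). Without single mice these calls and that of H2-T22 were lost in 4 to 6 of 9 fits (edgeR adjusted p up to 0.151). Ly6a, the stem and plasma cell antigen Sca-1, was at 19.3, 21.6 and 17.1 CPM in NZW and 82.6, 90.3 and 162 CPM in NZBWF1 (2.54 ± 0.27, adjusted p = 0.00197), and with equal class shares it was still called (1.32, adjusted p = 4.53e-09).

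Of 17 dendritic cell genes 4 were higher and 0 lower, beside 1.49% and 0.785% of all genes, with a median log2 difference of 0.37. They were Siglech, Klk1, Ccr9 and Klk1b27. Siglech, a lectin of plasmacytoid dendritic cells, was at 15.3, 15.4 and 15.6 CPM in NZW and 51.3, 52.8 and 61.7 CPM in NZBWF1 (1.84 ± 0.13, edgeR adjusted p = 1.6e-06). Klk1, a tissue kallikrein (chr7:44225360-44229618), was at 2.48, 1.42 and 1.95 CPM against 34.6, 32.2 and 45.4 CPM (4.28 ± 0.25, adjusted p = 4.89e-06), and its neighbour Klk1b27 was at 0 UMIs in NZW and at 7.94, 9.07 and 11.8 CPM in NZBWF1, at least 156-fold higher. Ccr9, a homing receptor, was at 11.5 to 15.3 CPM against 24.9 to 32.6 CPM (1.16 ± 0.17, adjusted p = 0.00414). With equal class shares Siglech (0.78, adjusted p = 5.19e-05), Klk1 (3.40, adjusted p = 2.17e-16) and Klk1b27 kept their calls, while that of Ccr9 was lost (0.29, adjusted p = 0.585) and the median of the list was -0.21. Ly6d (-0.70) and Cd7 (-0.78) were called lower in that fit, against -0.37 and 0.11 without the weighting, where neither was called. The broader plasmacytoid markers Tcf4 (0.37 ± 0.10), Bst2 (0.47 ± 0.14) and Irf8 (0.17 ± 0.13) were not called by edgeR, while DESeq2 called Tcf4 and Bst2.

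Of 13 globin and haem synthesis genes 2 were lower and 0 higher, beside 0.785% of all genes lower, with a median log2 difference of -0.76, and 7 lay below NZW without overlap, beside 9.26% of all genes. Red cells had been lysed before the cells were loaded, and the part of that step in these levels was not tested. DESeq2 called 8 of them lower, and 7 of 22 red cell membrane genes and regulators where edgeR called 0. Of the latter, 16 were lower at an unadjusted p under 0.05, as were 843 of all 12613 genes. Alad, an enzyme of haem synthesis, was at 242, 404 and 353 CPM in NZW and 156, 214 and 143 CPM in NZBWF1 (-0.96 ± 0.20, edgeR adjusted p = 0.0349). Hbb-bt, a beta globin, was at 148, 268 and 259 CPM against 44.1, 56.9 and 27.0 CPM (-2.40 ± 0.45, adjusted p = 0.0478), but summed with its copy Hbb-bs the difference was not called (-1.64, adjusted p = 0.116). Both calls were lost when single mice were left out, that of Alad without 6 of the 9 (edgeR adjusted p = 0.0527 to 0.144) and that of Hbb-bt without 7 (0.0561 to 0.161). Erythroid-like cells were 3.36%, 8.22% and 5.68% of NZW cells and 2.47%, 6.12% and 3.22% of NZBWF1 cells, which overlapped. Of 22 replication-dependent histone genes edgeR called 4 lower and 0 higher, DESeq2 called 7 lower and 1 higher, and 11 were lower and 1 higher at an unadjusted p under 0.05. Hist1h4i was at 54.9, 60.5 and 55.6 CPM against 21.3, 28.3 and 26.9 CPM (-1.15 ± 0.11, adjusted p = 6.38e-05), and Hist1h1d at 22.1 to 23.8 CPM against 8.05 to 14.9 CPM (-0.89 ± 0.17). Hist1h1d lost its call without NZW 2 or NZW 3 (edgeR adjusted p = 0.0612 at most). Of the genes of mitosis, 0 of 30 were called by edgeR or by DESeq2, with a median of -0.22, although 8 were lower at an unadjusted p under 0.05 and 14 lay below NZW without overlap.

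T-cell receptor genes had 2 calls of 19, both higher, where 1.49% of all genes were called higher and 0.785% lower. Trbc1, a constant region of the T-cell receptor beta chain, was at 0, 0.0590 and 0 CPM in NZW and at 21.5, 8.40 and 11.8 CPM in NZBWF1, whereas NZW is known to lack this gene through a deletion in its beta-chain locus. Its partner Trbc2 was at 19.6 to 24.3 CPM against 22.4 to 58.4 CPM (0.78 ± 0.45) and was not called. Cd4, also present on plasmacytoid dendritic cells, was at 3.99 to 4.54 CPM against 8.85 to 12.3 CPM (1.24 ± 0.19, edgeR adjusted p = 0.00322; 0.24 with equal class shares). The call of Trbc1 was lost without NZW 1, 2 or 3 (edgeR adjusted p = 0.0625 to 0.149). NK genes gave 1 call of 22, Nkg7 (0.53 ± 0.12), which was lost in 7 of the 9 fits that left a mouse out. Of the 22, 12 lay above NZW without overlap and 0 below, beside 9.74% of all genes above, and DESeq2 called 4 higher (Klra4, Klra8, Klrd1 and Nkg7). The median log2 difference of the list was 0.57, and -0.03 with equal class shares. NK-like cells were 1.36 to 1.5% of NZW and 1.65 to 2.67% of NZBWF1 cells. By edgeR, granule proteins of neutrophils gave 0 of 25, neutrophil activation genes 0 of 18, complement genes 0 of 12 and Fc and complement receptors 0 of 14. At an unadjusted p under 0.05 these lists held 2, 2, 1 and 1 genes, beside 13.7% of all genes. DESeq2 called 1 gene of these lists, the granule list's Itgb2l.

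**Figure D4:**
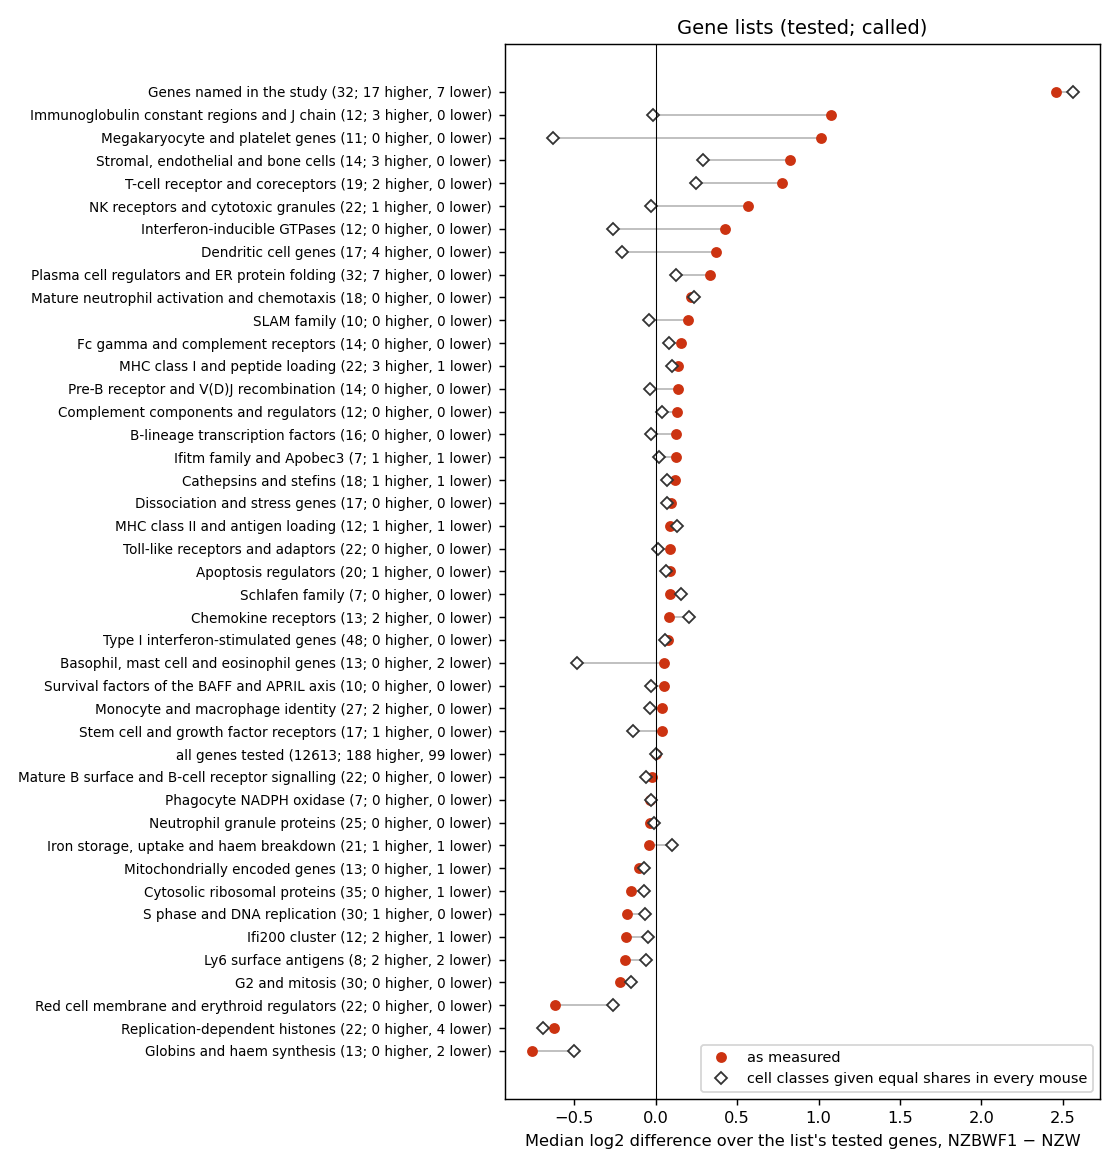
Median log2 difference (NZBWF1 minus NZW) of each gene list with at least 5 tested genes, as measured (red dots) and with equal class shares (diamonds). The median of the immunoglobulin constant regions moves from 1.08 to -0.01 and that of the dendritic genes from 0.37 to -0.21, while that of the histones stays at -0.62 and -0.69.

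The remaining genes with the smallest p-values had no common list. Higher in NZBWF1 were Pi16, a peptidase inhibitor, at 1.81, 0.649 and 1.16 CPM against 21.7, 18.2 and 16.2 CPM (3.98 ± 0.23), Htatip2, an oxidoreductase, at 0 to 0.177 CPM against 13.99 to 15.7 CPM, and Gm42031, a non-coding transcript, at 1.04 to 3.19 CPM against 89.7 to 114 CPM (5.60 ± 0.26). Tesc, a calcium-binding protein (1.55 ± 0.15), and Mcee, the epimerase of methylmalonyl-CoA (0.97 ± 0.11), rose less. Lower were Syngr1, a synaptogyrin, at 27.5, 32.5 and 30.3 CPM against 10.5, 14.6 and 10.3 CPM (-1.34 ± 0.16), Stx17, a SNARE of autophagosomes (-0.79 ± 0.10), and Glo1, which detoxifies methylglyoxal (-0.60 ± 0.09). Cryzl2, Nt5c2, Nln, Nosip, Mogat2, AC139671.1 and Rpgrip1 fell by 0.57 to 0.97. The 3 NZBWF1 mice did not overlap the 3 NZW mice for 286 of the 287 called genes, beside 19% of all genes tested. As these genes were called on the same mice, that count follows largely from the choice and adds no support to the calls. Of the 32 genes that the study had named from these same samples, 17 were higher and 7 lower. The study set NZBWF1 against the average of both parents within cell types, which is another contrast. Ftl1-ps1, Ifitm2, Ly6c2, Ctse, AC139671.1 and Hist1h4i, which the study gave as higher in some cell types, were lower than in NZW here. The study listed Ftl1-ps1 as higher in every cell type for which it gave top genes. As the 32 genes were chosen on these mice, the counts are not independent evidence of their direction. C1qa (0.07), Capg (0.02) and Cd7 (0.11) were among the 8 that were not called.

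Within cell classes the plasmacytoid dendritic-like cells had the largest share of called genes. UMIs were summed per mouse and class, and over 14 classes 842 of 74616 tests were called (1.13%). These belonged to 564 genes, of which 454 were called in 1 class and 14 in at least 6 classes in the same direction. Of the 287 genes called in whole marrow, 179 were called in some class. Subtracting the free RNA estimate left 838 of the 842 calls. Plasmacytoid dendritic-like cells gave 189 of 7593 genes (2.49%) and erythroid-like cells 190 of 8560 (2.22%). Next were neutrophil-like (1.17%), monocyte-like (1.06%) and granulocyte-monocyte precursor-like cells (0.985%), and the smallest shares were in mature B-like (0.445%) and basophil or mast-like cells (0.0884%). The classes differed in cell number and so in what could be called, and the difference between classes was not tested.

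**Figure D5:**
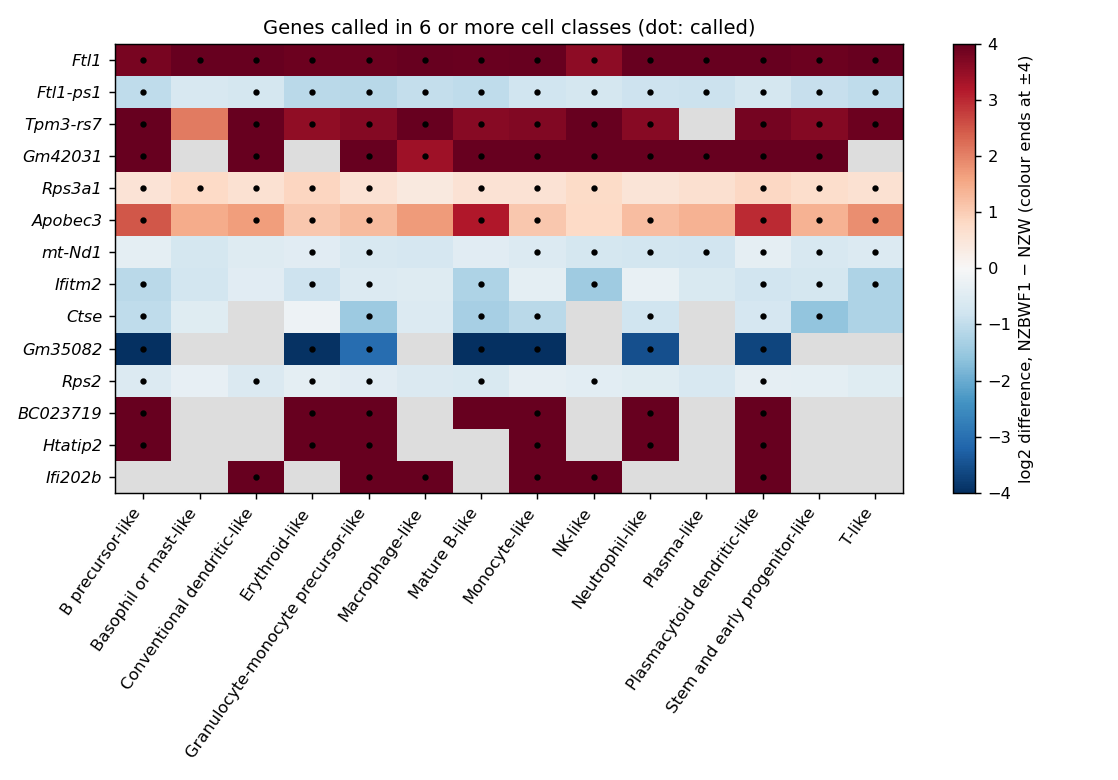
Log2 difference (NZBWF1 minus NZW, colour ends at -4 and 4) for the 14 genes called in at least 6 classes, by class, with a dot where called and grey where not tested. Ftl1 is red and called in all 14 classes, Ftl1-ps1 is blue in 13, and Apobec3, called in 10, is darkest in mature B-like cells.

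In plasmacytoid dendritic-like cells, genes of antigen presentation were higher. Of 11 MHC class II and antigen-loading genes tested 7 were higher and 1 lower (Ctse), with a median log2 difference of 0.75, beside 1.11% of all genes higher in this class. H2-Ab1, a chain of the class II molecule, was at 412, 523 and 349 CPM in NZW and 822, 983 and 1281 CPM in NZBWF1 (1.29 ± 0.15, edgeR adjusted p = 1.9e-06). H2-Aa was at 578, 881 and 546 CPM against 1357, 1309 and 1695 CPM (1.13 ± 0.13). Cd74, the invariant chain that escorts class II, was at 1896, 2374 and 1776 CPM against 4436, 3053 and 4102 CPM (0.94 ± 0.11). None of these groups overlapped. Over the whole class the summed class II level was 4095 to 5493 CPM in NZW, 7215 to 9048 CPM in NZBWF1 and 8571 to 9166 CPM in NZB. Among 21 class I genes 7 were higher and 0 lower, with a median of 0.28. B2m, the light chain of class I, was at 1031, 1138 and 1087 CPM against 1572, 1377 and 1573 CPM (0.47 ± 0.10), and the immunoproteasome subunit Psmb8 at 486, 436 and 391 CPM against 697, 685 and 694 CPM (0.66 ± 0.11). In the whole-marrow sums H2-Ab1 (0.17 ± 0.17), Cd74 (0.33 ± 0.21) and B2m (0.29 ± 0.09) were not called by edgeR, while DESeq2 called B2m. With cells pooled by strain, the makeup of the class differed. The cluster led by Klk1, Cd209d and P2ry14, which had the highest class II level, was 29.1% of the pooled class in NZW and 41.5% in NZBWF1. By mouse its share was lowest in NZW 2 (22.7%) and was 59.8, 31.4 and 45.4% in NZBWF1 1, 2 and 3. NZBWF1 2 lay below NZW 1, so the groups overlapped. Within that cluster alone the summed class II level was 8753, 13333 and 8590.3 CPM in NZW and 13439, 13888 and 15286 CPM in NZBWF1, still without overlap but closer. In another cluster of the class, with enough cells in 2 mice of each strain, it was 5120 and 3830 CPM against 7372 and 8249 CPM, and in a further one 3781 to 5670 CPM against 5111 to 6846 CPM, which overlapped. With predicted doublets kept, 3 class II genes were higher in place of 7.

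Genes of mitosis were lower in the same cells. Of 27 G2 and mitosis genes 15 were lower and 0 higher, with a median of -1.13, beside 1.38% of all genes lower in this class. Top2a, a topoisomerase, was at 341, 430.1 and 502 CPM in NZW and 145, 169 and 212 CPM in NZBWF1 (-1.23 ± 0.18, edgeR adjusted p = 0.00032). Birc5, a subunit of the chromosomal passenger complex, was at 202, 158 and 205 CPM against 49.5, 43.1 and 104 CPM (-1.42 ± 0.21), and Cdk1, the mitotic kinase, at 94.8, 105 and 113 CPM against 33.0, 29.2 and 62.7 CPM (-1.22 ± 0.24). Of the S-phase genes 2 of 26 were lower, Rrm1 and Rrm2. Hist1h2ae fell from 97.8, 47.8 and 65.7 CPM to 6.61, 7.69 and 5.02 CPM (-3.44 ± 0.41). The summed mitosis level was 2840.3 to 3842 CPM in NZW, 801 to 1719 CPM in NZBWF1 and 1224 to 1694 CPM in NZB. In the Klk1-led cluster the summed level was 58.7, 84.3 and 509.8 CPM in NZW and 46.8, 103 and 151 CPM in NZBWF1, which overlapped. A cycling cluster led by Bex6, Flt3 and Bcl2 held 5701 to 8131 CPM in NZW and 3473 and 5403 CPM in NZBWF1 2 and 3, without overlap, NZBWF1 1 having fewer than 10 such cells. That cluster was 12.9, 13.4 and 14.9% of the class in NZW and 7.69, 11 and 7.9% in NZBWF1. A small one led by Ly6d and Cox6a2, which had the highest mitosis level (13140 and 17108 CPM in NZW 2 and NZW 3, with fewer than 10 cells in each other mouse of the 6), was 3.6, 6.19 and 8.93% of the class in NZW and 0.855, 2.14 and 2.22% in NZBWF1. Both cycling clusters were thus a smaller part of the class in every hybrid mouse than in any NZW mouse, a difference that was not tested. The part of cluster makeup in the lower mitosis sums was not tested either. With predicted doublets kept only 3 of the 29 genes then tested were lower, leaving out single mice gave 11 to 18, and DESeq2 called 13 of the 27.

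Markers of the lineage differed within plasmacytoid dendritic-like cells too. Klk1 was at 88.9, 59.7 and 76.2 CPM in NZW and 974, 745 and 908 CPM in NZBWF1 (3.53 ± 0.14), with 2827 to 2954 CPM in NZB, and Klk1b27 at 0 UMIs against 225, 225 and 247 CPM, at least 81.2-fold higher. Klk1 and Siglech also served to name the class, although neither entered the clustering. Siglech was at 527, 627 and 580.5 CPM against 1410.2, 1272 and 1246 CPM (1.17 ± 0.10), so its level was higher within the class as well as in the sums. Cd7, a surface antigen of lymphoid cells, went down from 557, 639 and 596 CPM to 320.4, 318 and 218 CPM (-1.10 ± 0.12, edgeR adjusted p = 2.2e-11), with 13.3 to 24.5 CPM in NZB. Ly6c2 was lower (-1.03 ± 0.12). Apobec3 was at 44.4, 53.8 and 44.7 CPM against 383, 340.0 and 406 CPM (2.98 ± 0.17) and Ifi211 at 0 to 2.96 CPM against 66.2 to 76.0 CPM. Of 27 interferon-stimulated genes tested in this class 0 were higher and 2 lower, Ly6e and Slfn5, beside 1.11% and 1.38% of all genes. In no class were more than 2 genes of that list called.

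In erythroid-like cells, with 96 genes higher and 94 lower, the lists with calls included histones and red cell genes. Of 15 histone genes 7 were lower, with a median log2 difference of -0.84, beside 1.1% of all genes lower in this class. DESeq2 called 5, and under a filter of 10 counts in every mouse 5 could be tested and 0 were called. Hist1h2ae was at 118, 82.6 and 72.1 CPM in NZW and 17.1, 38.7 and 23.97 CPM in NZBWF1 (-1.58 ± 0.22, edgeR adjusted p = 0.00074), and Hist1h4d at 25.8 to 45.7 CPM against 7.34 to 9.38 CPM (-1.88 ± 0.25). Rhd, a blood group membrane protein, was at 516, 457 and 461 CPM against 295, 343 and 281 CPM (-0.63 ± 0.10). Alad (-0.59 ± 0.12), Fech (-0.49 ± 0.12) and Hbb-bt (-2.04 ± 0.34) were lower as well. The more mature, globin-led cluster was a smaller part of the class in NZBWF1: the less mature cluster made up 53.2% of erythroid-like cells in NZW and 71.9% in NZBWF1. Within the less mature cluster the summed histone level was 1175, 978 and 928 CPM in NZW and 541, 1035 and 751 CPM in NZBWF1, which overlapped. In the globin-led cluster it was higher in every mouse, at 2891, 2196.1 and 2367 CPM against 846, 2194 and 1714 CPM, without overlap but with NZBWF1 2 next to NZW 2. Higher in these cells were Hmox1, which breaks down haem (2.90 ± 0.43), Vcam1 (2.47 ± 0.48), C1qc (2.73 ± 0.52) and C1qa, at 1.97 to 3.52 CPM against 2.45, 12.0 and 11.5 CPM (1.94 ± 0.39). All 4 are macrophage markers, and macrophage-like cells were 1.85 to 2.25% of NZW and 2.55 to 3.49% of NZBWF1 cells. The part of macrophage RNA in these calls was not tested.

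In monocyte-like cells 0.64% of the genes tested were higher and 0.415% lower, among them the Ifi200 and Ly6c genes. Ifi202b was at 0 UMIs in NZW and 156, 202 and 207 CPM in NZBWF1, at least 331-fold higher. Mndal was at 199.7, 198 and 224 CPM against 76.5, 105 and 115 CPM (-1.03 ± 0.12, edgeR adjusted p = 4.3e-07), and Ifi203 at 199 to 291 CPM against 115 to 165 CPM (-0.81 ± 0.13). Ly6c1 went from at most 1.09 CPM to 77.7, 83.8 and 94.8 CPM, and Ly6c2 from 2072, 2288 and 2179.5 CPM to 1104, 1321 and 1272 CPM (-0.82 ± 0.09). Spp1, the secreted phosphoprotein osteopontin, rose from 4.29, 5.001 and 7.07 CPM to 30.6, 25.7 and 30.1 CPM (2.34 ± 0.25). The complement genes C1qa, at 1.11 to 3.26 CPM against 11.6 to 12.9 CPM (2.56 ± 0.44), and C1qb (2.50 ± 0.49) were also higher here, and both are macrophage markers. Fcgr2b, the inhibitory Fc receptor, was lower, at 70.1, 87.2 and 66.3 CPM against 40.0, 55.5 and 42.3 CPM (-0.66 ± 0.16, adjusted p = 0.024). In granulocyte-monocyte precursor-like cells F13a1, a coagulation factor of the monocyte line, fell from 343, 368 and 363 CPM to 188, 222 and 199.6 CPM (-0.80 ± 0.11). The chaperones Hspa5 (0.47 ± 0.11), Calr (0.45 ± 0.11) and Sdf2l1 (0.52 ± 0.13) rose and Xbp1 fell (-0.69 ± 0.15), where 0.579% of all genes were higher. With cells pooled by strain, the cluster led by Elane, Prss57 and Prtn3 held 50.2% of this class in NZW. That led by Mpo, Ctsg and Cd34 held 54.6% in NZBWF1. By mouse the larger cluster did not follow strain. The Elane-led cluster was 2.86, 3.26 and 2.98% of all cells in NZW and 1.74, 3.42 and 1.92% in NZBWF1. The Mpo-led cluster was 2.12, 3.55 and 3.26% against 0.891, 4.39 and 2.59%. The part of cluster makeup in the calls was not tested. In conventional dendritic-like cells Cd33 fell from 226, 249.7 and 209 CPM to 27.1, 121 and 32.4 CPM (-1.64 ± 0.34).

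In neutrophil-like cells 1 of 25 granule protein genes was called lower, Itgb2l, an integrin subunit (-0.75 ± 0.14), beside 0.387% of all genes lower in this class. Pi16 was at 4.19, 1.56 and 3.29 CPM in NZW and 51.1, 38.5 and 39.9 CPM in NZBWF1 (3.80 ± 0.23). Ldhb, a lactate dehydrogenase subunit, fell from 50.7, 48.3 and 41.8 CPM to 23.4, 22.02 and 23.4 CPM (-1.03 ± 0.14). The death receptor Fas was at 4.43, 4.16 and 6.11 CPM against 12.9, 12.7 and 13.2 CPM (1.39 ± 0.24, edgeR adjusted p = 0.0039), and the survival gene Bcl2a1b, which has near copies of its own, at 3.12 to 3.53 CPM against 7.02 to 10.5 CPM (1.39 ± 0.26). With cells pooled by strain, the largest of the 7 neutrophil-like clusters was led by Orm1, Ifitm6 and Ltf in NZW (24.4% of the class). In NZBWF1 it was led by Retnlg, Asprv1 and Mmp8 (26.4%). By mouse the order of these clusters did not always follow strain. The Retnlg-led cluster was the larger in NZW 1 (9.63 against 9.11% of all cells) and the smaller in NZBWF1 2 (4.296 against 6.998%). In NZW 2, NZW 3, NZBWF1 1 and NZBWF1 3 the order was that of the pooled cells. The part of cluster makeup in the calls was not tested. In macrophage-like cells Olfm4 rose from 211, 306 and 187 CPM to 543, 506 and 405 CPM (1.02 ± 0.21). Olfm4 was also among the leading genes of a neutrophil-like cluster, and the part of neutrophil RNA in this call was not tested.

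In B-lineage cells the Ifitm genes and Apobec3 differed. Of 9254 genes 0.767% were called in B precursor-like cells, 0.357% higher. Apobec3 was at 35.6, 37.9 and 33.3 CPM in the mature B-like cells of NZW and at 431, 288 and 274 CPM in those of NZBWF1 (3.21 ± 0.21, edgeR adjusted p = 1.7e-17). In B precursor-like cells it was at 35.8 to 39.3 CPM against 199 to 223 CPM (2.50 ± 0.15). Ifitm2 was lower in both, from 2747, 2306 and 2184 CPM to 919.9, 1036 and 1117 CPM in mature B-like cells (-1.24 ± 0.14), and NZB held 5.35 to 21.95 CPM there. Ifitm1 fell in B precursor-like cells, from 824 to 1138 CPM to 344 to 596 CPM (-1.21 ± 0.18). Ifi214 (1.53 ± 0.24) and the proton channel gene Hvcn1 (1.19 ± 0.23) rose in the precursors, while Ly6d, an antigen of early B cells, fell in mature B-like cells (-0.68 ± 0.13). The non-coding Gm35082 fell from 41.8, 52.8 and 54.2 CPM to 7.75, 2.57 and 0.703 CPM in the precursors (-4.03 ± 0.35), and NZBWF1 1 was the highest of the hybrid mice in the whole-marrow sums too. No pre-B receptor or B-lineage factor was called in the precursors (0 of 14 and 0 of 15 by edgeR). Plasma-like cells could be compared in 8 mice, as NZW 1 had too few. Ly6a was at 712 and 857 CPM in NZW 2 and 3 and at 1798, 2434 and 2396 CPM in NZBWF1 (1.5 ± 0.18, adjusted p = 1.5e-05), and Lsp1, a leukocyte protein that binds actin, fell from 106 and 97.6 CPM to 29.9, 17.8 and 19.4 CPM (-2.30 ± 0.50). Neither an immunoglobulin constant region nor Jchain was among the 11 calls in these cells, which were 0.641% of 1716.

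In NK-like cells 0.908% of the genes were called, 0.578% lower, and in T-like cells 0.517%. Trbc1 was at 0 UMIs in NZW NK-like cells and at 370.4, 247 and 324 CPM in those of NZBWF1, at least 29.98-fold higher, and at 0, 10.7 and 0 CPM against 663, 657 and 610.2 CPM in T-like cells. Ly6a rose in NK-like cells from 12.0, 10.8 and 18.2 CPM to 259, 208 and 288 CPM (4.05 ± 0.46, edgeR adjusted p = 1.8e-09), and Ifitm2 fell from 2402, 2642 and 1908 CPM to 611, 1058 and 870.4 CPM (-1.43 ± 0.21). In T-like cells H2-Q7 rose from 41.3, 85.3 and 49.7 CPM to 337, 304 and 265 CPM (2.29 ± 0.35). In stem and early progenitor-like cells Ifitm2 (-0.70 ± 0.14) and mt-Nd1 (-0.64 ± 0.13) fell, and the latter, a mitochondrially encoded subunit of complex I, was lower in 9 classes.

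Of the 287 called genes, 134 (46.7%) lay within 1 Mb of another called gene, beside 29.4% of the genes not called. The longest run was chr7:42609526-45896714, with 11 called of 82 tested genes, among them Klk1, Klk1b27, Nosip, Nkg7 and Ftl1. A stretch of the MHC, chr17:34823993-36117121, held 9 of 67 (H2-Q6, H2-Q7, H2-T22 and BC023719 among them). On chromosome 15, the Ly6 stretch at 74721204 to 75111970 held 6 of 12, with Ly6a and Ly6c1 higher and Ly6k and Ly6c2 lower, and that from 77747798 to 80119501 held 8 of 51, with Apobec3 and Syngr1. By chromosome, the share called was 5.07% on chromosome 17, 3.61% on 15, 3.26% on 13 and 3.23% on 7, beside 2.28% of all genes and 0.771% on X. Genes whose 3' words were shared with another gene for at least 50% of the words are read with less certainty, and they were 26 of the 287 called genes (9.06%) and 353 of 12600 of all genes with a transcript (2.80%).

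NZB values are given above for some of the genes and classes. The comparisons of NZBWF1 and of NZB with NZW share the NZW mice, so they are not independent. The mean of NZBWF1 lay between the means of the parents for 236 of the 287 called genes (82.2%, beside 42.4% of all genes tested), and the choice of genes by their difference from NZW bears on that count. For 11 genes every NZBWF1 mouse was above every mouse of both parents, and for 5 every mouse was below, which are 3.83% and 1.74% of the called genes beside 1.78% and 1.33% of all genes tested. The choice of genes bears on these shares too, as 286 of the 287 already had no overlap with NZW, so no excess is read from them. Besides Ighg2c and Sdc1, the first group held Camk2d, a calcium-dependent kinase, at 65.1, 48.4 and 46.8 CPM in NZW, 99.2, 72.3 and 108 CPM in NZBWF1 and 46.6 to 51.9 CPM in NZB (0.80 ± 0.16, edgeR adjusted p = 0.0211). With equal class shares it was still called (0.74, edgeR adjusted p = 1.91e-05), but without the B-lineage classes it was not (0.38, adjusted p = 0.271). Tnfrsf19, a receptor of the TNF family, was at 5.49 to 6.16 CPM in NZW, 9.36 to 13.6 CPM in NZBWF1 and 2.09 to 2.18 CPM in NZB. Elovl6, a fatty acid elongase, was at 14.3 to 18.9 CPM, 22.3 to 30.7 CPM and 18.2 to 18.6 CPM in the same order. Dnttip1, a subunit of a histone deacetylase complex, was below both, at 46.6 to 48.2 CPM in NZW, 33.7 to 36.7 CPM in NZBWF1 and 39.7 to 43.8 CPM in NZB (-0.41 ± 0.08). With equal class shares these 3 were not called, with log2 differences of 0.61 for Tnfrsf19 (edgeR adjusted p = 0.572), 0.37 for Elovl6 (0.570) and -0.47 for Dnttip1 (0.0573). The difference of Dnttip1 was thus no smaller there, and without the B-lineage classes it was called (-0.38, edgeR adjusted p = 0.0419). These genes were picked out after their values were seen.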

How the data were processed

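Femur marrow, with red cells lysed before loading, of 3 NZBWF1, 3 NZW and 3 NZB mice was measured, 1 library per mouse. According to the submitters' processing notes, the reads were processed with bcl2fastq 2.20 and Cell Ranger 3.1.0 on mm10, and the authors deposited aggregated UMI counts, raw and filtered, which hold whole numbers per gene and barcode and are not normalized. The number after the barcode's hyphen was read as the row of the aggregation list, which gave the mouse. The sources used here do not say whether aggregation thinned the libraries to like depth. Of 68444 filtered barcodes, 39051 held 1000 or more UMIs from 500 or more genes with no more than 10% mitochondrial UMIs. UMI counts per mouse set the precision, and intervals of counting error were not needed because the mouse was the replicate. All 31053 genes of the deposited matrix entered the sums and every column had a mapped mouse.

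UMIs were summed per mouse, genes were kept by filterByExpr on strains, scaled by TMM and tested with edgeR 4.0.16 (R 4.3.3) quasi-likelihood fits with robust dispersion over all 9 mice, with the contrast NZBWF1 minus NZW and Benjamini-Hochberg adjustment at 0.05. A standard error is the log2 difference over the root of its F statistic. For classes, 2526 predicted doublets were removed by comparison with simulated ones (96 to 467 per mouse), and 36525 cells were clustered (2000 variable genes, 30 components, 15 neighbours, Leiden resolution 2, leidenalg 0.10.2) without 870 genes that differed between strains. Of 51 clusters 48 were named from fixed markers and 3 were left unnamed, so shares may differ from those of the study because the names were rebuilt. The same fits were run on class sums with at least 10 cells per mouse and on cell numbers. Free RNA was estimated from barcodes of 5 to 100 UMIs. Transcripts came from GENCODE vM21, on the same build as mm10, and 99.6% of gene IDs were matched. A fold against a strain at 0 was set against a floor of 3 UMIs over the strain's libraries. The fits to whole-marrow sums, class sums and cell numbers were tested on simulated data. Of 200 genes changed 2-fold, 149 were called in whole marrow, 154 in monocyte-like and 105 in plasmacytoid dendritic-like cells. A doubled plasmacytoid dendritic-like class was called in 76 of 100 simulations. Differences of that size can thus go uncalled. Same-numbered NZBWF1 and NZW mice deviated together over the 16 classes (correlations 0.82, 0.73 and 0.35), so blocked values are printed beside class shares where they change the call. Over genes the correlations were 0.35, 0.49 and -0.15, and the values of single genes are given without the block.

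The alternatives were the replicate number as a block, 6 mice only, DESeq2 1.42.0, other scalings, filters, cell limits and class definitions, and each mouse left out. Summing near-identical copies and thinning to the equal-share totals with the makeup kept were chosen after seeing the data. The genes named were the 15 called genes of smallest p in each direction with at least 10 CPM in a strain, called members of the lists, the genes the study names, and the 3 called genes of smallest p in each direction per class. The members, gene lists and tests were chosen with earlier results of these data known.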

Additional observations from a re-analysis of the deposited data

Results flagged for a closer look

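Napsa, which encodes an aspartic protease, was called in opposite directions in different classes. NZBWF1 was higher in granulocyte-monocyte precursor-like cells, at 326, 317 and 295 CPM against 250, 181 and 209 CPM in NZW (log2 difference 0.55), and in neutrophil-like cells, at 93.2, 114 and 99.9 CPM against 55.6, 59.5 and 53.4 CPM (0.87). It was lower in B precursor-like cells, at 144, 149.8 and 149 CPM against 263, 178 and 232 CPM (-0.60). In the whole-marrow sums Napsa was not called (0.17, edgeR adjusted p = 0.62). Ly6e, a surface antigen that also belongs to the interferon-stimulated genes, was higher in erythroid-like cells, at 321, 311 and 343 CPM against 222, 253 and 219.8 CPM (0.48), and in granulocyte-monocyte precursor-like cells, at 565, 675 and 656 CPM against 383, 521 and 486 CPM (0.45). Ly6e was lower in NK-like cells, at 370.4, 364 and 396 CPM against 837, 834 and 627 CPM (-1.01), and in plasmacytoid dendritic-like cells, at 1536, 1294 and 1328 CPM against 1888, 2147 and 1847 CPM (-0.51). Every NZBWF1 mouse lay on the same side of the NZW mice in each of these classes. The difference between classes was not tested for either gene.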

How the results depend on the processing

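For the 188 higher and 99 lower genes of whole marrow, a filter of 10 counts in every mouse gave 102 and 53, equal class shares gave 76 higher, thinning to the same totals with the makeup kept gave 79 and 43, the limit of 5% mitochondrial UMIs gave 55 lower and DESeq2 gave 171 lower. Leaving out single mice gave 99 to 209 higher and 34 to 157 lower. DESeq2 kept 278 of the 287 calls and other size factors (RLE) 281. For the 450 higher and 392 lower calls within classes, no filter gave 677 and 606, the filter of 10 counts gave 210 and 192 and DESeq2 gave 231 lower, and leaving out single mice gave 243 to 498 lower. Of the 73 called genes named above, 30 kept their call in all 20 settings compared, and 0 changed direction. The cause was not tested.

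For the number of classes called (1), a marker score per cell gave 0, a total without B-lineage cells gave 0 because it leaves plasma-like cells out, and leaving out single mice gave 1 to 2. The plasma-like difference was 0.67 by the marker score (edgeR adjusted p = 0.374), beside 2.38 in the main fit. The exact permutation test of the shares gave p = 0.1, below which it cannot fall. Leaving out single mice gave 0.70 to 1.02 for plasmacytoid dendritic-like cells and 0.41 to 1.55 for T-like cells, the latter called without NZBWF1 2 (edgeR adjusted p = 0.0498). Small differences changed sign: B precursor-like -0.02 and neutrophil-like 0.06 at 2000 UMIs and 1000 genes, unnamed -0.27 there, mature B-like 0.02 with TMM scaling over classes, megakaryocyte-like -0.22 and unnamed -0.73 by the marker score, and, with single mice left out, B precursor-like -0.15 to 0.23, mature B-like -0.57 to 0.34 and precursors of granulocytes and monocytes -0.74 to 0.03. Among uncalled genes, C1qa (-0.44), Ighg2b (-0.49) and Cd7 (-0.78) changed sign with equal class shares, and C1qa (-0.04 to 0.23) and Capg (-0.11 to 0.21) with single mice left out.

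The replicate numbers were not taken to pair the mice in the gene tests: deviations of same-numbered NZBWF1 and NZW mice correlated at 0.35, 0.49 and -0.15 over genes (0.82, 0.73 and 0.35 over classes). Number 3 did not correlate best with its own number over genes or over classes. Over genes NZB correlated with NZW at 0.46, 0.30 and 0.14 and with NZBWF1 at 0.31, 0.37 and 0.08. Whether the numbers pair the mice is thus not settled. With the replicate number as a block, 349 genes were higher and 289 lower, 3 classes were called, and the differences were 0.83 for plasmacytoid dendritic-like cells (edgeR adjusted p = 0.0232) and 0.92 for T-like cells (0.0440). It changed no other class call. Megakaryocyte-like cells, 45 in the 6 mice, and plasma-like cells of NZW were too few for finer comparisons.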

Other observations

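Genes of stromal, endothelial and bone cells gave 3 higher and 0 lower of 14 tested in whole marrow, beside 1.49% of all genes higher, with a median log2 difference of 0.82, and 0.29 with equal class shares. They were Spp1, at 8.05, 7.79 and 7.45 CPM in NZW and 12.9, 13.1 and 13.4 CPM in NZBWF1 (0.76, edgeR adjusted p = 0.0029), the leptin receptor gene Lepr (1.15) and the vascular receptor gene Kdr (2.09). The calls of Lepr and Kdr were lost in 4 and 8 of the 9 fits that left a mouse out (edgeR adjusted p up to 0.183). Cmah, which makes the sialic acid that mice carry and humans lack, was higher as well (1.21, edgeR adjusted p = 0.00716). Ribosomal protein genes gave 0 higher and 1 lower of 35, Rps2 at 3324, 3764 and 3515 CPM against 2191, 2569.6 and 2352 CPM (-0.58), while Rps3a1, which was on none of the lists, rose from 1977, 1973 and 1935 CPM to 2935, 3213 and 2939 CPM (0.63). Both were among the 14 genes called in at least 6 classes, and both have many near copies in the genome, so their counts are uncertain.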
